A study of Mus musculus with 6 samples.

Results

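The transcripts of 10 checkpoint and costimulatory ligands were followed, the surface and secreted proteins through which antigen-presenting, tumour and T cells engage the receptors that restrain or sustain T-cell activity. The genes were taken by name (Cd274, Pdcd1lg2, Pvr, Nectin2, Cd80, Cd86, Cd276, Lgals9, Icosl and Tnfsf9), and each had 1 row among the 54532 genes of the table. No cut on measured values was used in the choice, but earlier results of these data were known when it was made. Levels are in FPKM, fragments counted on a gene relative to its length and to the size of the library. All 10 passed the filter on low values, a mean over the libraries of 0.5 FPKM or more, and 15874 genes passed it in all.

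T cells need a costimulatory signal beside the antigen receptor, and CD80 and CD86 give it through CD28 while CTLA-4 competes for the same ligands. PD-L1 and PD-L2 bind PD-1, and the nectin family members CD155 and CD112 bind TIGIT, which inhibits, as well as CD226, which activates. CD155 also binds CD96, and CD112 binds PVRIG, a further inhibitory receptor. In tumours these ligands can be carried by the cancer cells, by myeloid cells and by activated T cells themselves, and PD-L1 in particular is known to be induced by interferon-γ.

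RNA came from T cells purified from the spleens of young adult C57BL/6 mice with a pan T-cell isolation kit, kept in IL-2, pre-activated with anti-CD3 and anti-CD28 beads, and co-cultured with ID8, a mouse ovarian cancer cell line. In the cisplatin group (3 libraries, labelled CIS) the treatment was 40 µM cisplatin, with which the ID8 cells were pretreated before the co-culture, and in the control group (3 libraries, labelled WT) it was PBS. The labels name no genotype difference and do not say whether the libraries came from separate mice or cultures. The study's methods speak of biological replicates without saying what was separate, so p-values measure the spread between these libraries, which may be technical. All cells were from a co-culture with a single tumour line, and no library of ID8 cells alone or of T cells alone was analysed here.

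The libraries held between 30606569 and 32169496 reads on genes, rebuilt from the FPKM. The 20 T-cell markers examined were all present, and all 20 were higher in the cisplatin group (adjusted p under 0.05 in limma, a linear model fitted across all tested genes), with a summed level of 1928 to 2055 FPKM in the control libraries and 3054 to 3125 FPKM in the cisplatin libraries. The libraries labelled T cells also held transcripts that mark other cells. The 20 ID8 tumour markers, of which Col3a1 was at 0 in every library and 16 were tested, summed to 1586 to 1667 FPKM in the control libraries and to 241 to 249 FPKM in the cisplatin libraries, and 15 of the 16 were lower. The 10 B-cell markers summed to 1699 to 1786 FPKM in the control group and 3637 to 3710 FPKM in the cisplatin group, of which Ighm took most. The 13 macrophage and monocyte markers summed to 66.2 to 70.6 FPKM and 129.7 to 148.9 FPKM, and the 10 dendritic-cell markers to 36.4 to 37.1 FPKM and 56.4 to 63.6 FPKM, with Cd209a at 0 in every library. These levels moved with the treatment beside every ligand result given here, and their part in the ligand changes was not tested. In such bulk RNA, fewer cells of a type and less RNA per cell cannot be told apart.

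The ligands changed in both directions. Nectin2, Cd276 and Pvr, ligands or putative ligands of inhibitory receptors, were at 15.6%, 30.1% and 44.3% of their control level in the cisplatin group, and Pdcd1lg2, which encodes PD-L2, was at 210.4% of it. Of the 10 ligands, 5 were lower (Nectin2, Cd276, Pvr, Tnfsf9 and Lgals9) and 4 were higher (Pdcd1lg2, Cd80, Cd86 and Cd274) at a limma adjusted p under 0.05, beside 29% of all tested genes lower and 27.5% higher. A call, which required in addition a change of at least 2-fold on the log2(FPKM + 0.1) scale, was reached by 3 ligands in the lower direction (12.8% of all tested genes) and by 1 in the higher direction (4.11%). When the values were centred on the T-cell markers, Cd274 became lower (limma adjusted p = 3.4e-04). Cd86 then had a negative fold change that did not pass (adjusted p = 0.081), and Cd80 no longer passed (adjusted p = 0.12). The libraries of the groups did not overlap for 9 of the 10 ligands, against 64.2% of all tested genes. The median log2 fold change was -0.50 over the 10 ligands and 0.03 over all tested genes.

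**Figure D1:**
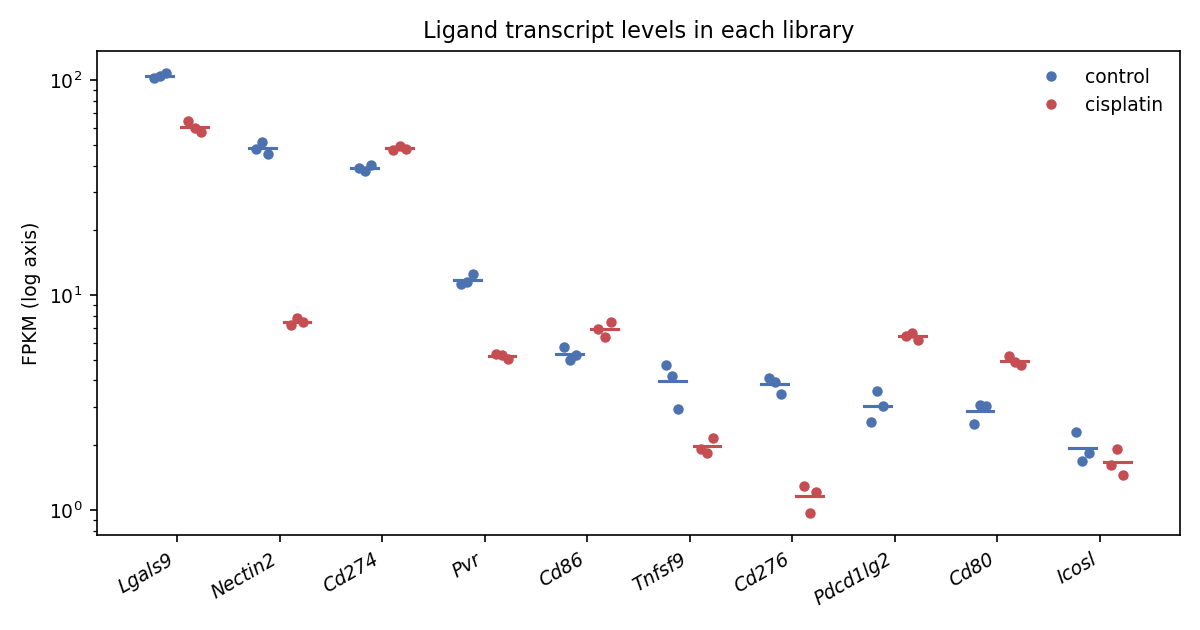
Level of each ligand transcript in FPKM on a log axis, with 1 point per library (control blue, cisplatin red, 3 libraries each) and a line at each group mean. Nectin2 falls from a mean of 48.2 to 7.50 FPKM, Pdcd1lg2 rises from 3.06 to 6.43 FPKM, and Icosl is the ligand whose groups overlap.

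In the control group Lgals9 had the highest level of the 10 ligands (104.6 ± 3.14 FPKM, SD, n = 3), followed by Nectin2 (48.2 ± 3.15), Cd274 (39.1 ± 1.23), Pvr (11.7 ± 0.671) and Cd86 (5.33 ± 0.392), and the libraries of none of these neighbours in the order overlapped. Tnfsf9, Cd276, Pdcd1lg2 and Cd80 then lay between means of 3.96 and 2.87 FPKM, each overlapping the next, and Icosl was lowest at 1.94 ± 0.321 FPKM. In the cisplatin group Lgals9 (60.6 ± 3.68 FPKM) and Cd274 (48.1 ± 1.27 FPKM) stood at the top with no overlap. Nectin2, Cd86 and Pdcd1lg2 followed at 7.50, 6.92 and 6.43 FPKM, where each overlapped the next, and Pvr (5.19 FPKM) overlapped Cd80 (4.92 FPKM). Tnfsf9 (1.97 FPKM) and Icosl (1.66 FPKM) also overlapped, and Cd276 was lowest at 1.16 ± 0.171 FPKM.

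The genes of the PD-1 ligands lie next to each other on the same strand of chromosome 19. Cd274, which encodes PD-L1 (ENSMUSG00000016496, GRCm38 chr19:29367455-29388095, plus strand, protein coding), had 39.2, 37.9 and 40.4 FPKM in control libraries 1 to 3 and 47.0, 49.5 and 47.7 FPKM in cisplatin libraries 1 to 3. Every cisplatin library was above every control library, by a small margin relative to the level. Cd274 rose with a log2 fold change of 0.30 (SE 0.037, limma adjusted p = 5.3e-04), which is 1.23-fold and below the 2-fold call, and turned to -0.28 on centring on the T-cell markers.

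Pdcd1lg2 (ENSMUSG00000016498, chr19:29410919-29471157, plus strand, protein coding) encodes PD-L2, a ligand for PD-1 typical of dendritic cells and macrophages. Its levels were 2.55, 3.59 and 3.03 FPKM in control libraries 1 to 3 and 6.46, 6.66 and 6.17 FPKM in cisplatin libraries 1 to 3, on 126 to 177 and 329 to 363 rebuilt reads. The groups were well separated, and control library 1 was the lowest of all. The log2 fold change of 1.06 (SE 0.12, limma adjusted p = 3.8e-04) was just past the 2-fold call, and without control replicate 1 it was 0.94 and no longer called. Pdcd1lg2 was the ligand with the largest increase, at the 95.2 percentile of log2 fold changes among all tested genes.

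Windows before the annotated starts of these neighbours were available from RefSeq (GRCm38.p6), and the 250 bases before each start are shown because the genes lie 22823 bases apart and differed in the size of their change. Both are read 5′ to 3′ on the plus strand, with a motif match, had there been one, in capitals. The Cd274 window is chr19:29367188-29367437 and the Pdcd1lg2 window chr19:29410669-29410918.
Cd274: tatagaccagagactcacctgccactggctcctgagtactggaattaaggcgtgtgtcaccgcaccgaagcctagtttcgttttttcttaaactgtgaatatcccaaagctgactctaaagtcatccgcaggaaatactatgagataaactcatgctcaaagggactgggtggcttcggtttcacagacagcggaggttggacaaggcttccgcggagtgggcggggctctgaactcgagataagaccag
Pdcd1lg2: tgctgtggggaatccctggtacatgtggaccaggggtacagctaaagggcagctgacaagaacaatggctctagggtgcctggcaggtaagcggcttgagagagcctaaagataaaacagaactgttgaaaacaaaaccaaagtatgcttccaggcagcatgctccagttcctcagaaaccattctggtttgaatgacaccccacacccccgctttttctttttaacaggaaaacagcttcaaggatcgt
The windows of 300 bases (250 before to 50 after the start) were searched on both strands for 3 motifs, the GAS element (TTCNNNGAA), the core of the interferon-stimulated response element ISRE (GAAANNGAAA) and an NF-κB motif (GGGNNTTTCC). None of the 3 was in the Cd274 or the Pdcd1lg2 window, which says only that these letters are not there. Of all 32851 RefSeq windows, 8.30% held the GAS motif, 3.44% the ISRE core and 1.63% the NF-κB motif. The Cd274 window had 15 CpG dinucleotides and a GC content of 52.7%, and the Pdcd1lg2 window 3 CpG and 46% GC.

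Within 200 kb of the span from Cd274 to Pdcd1lg2, with both of these counted, the table listed 9 genes, of which 8 were tested. At an adjusted p under 0.05, 6 were higher, Cd274 and Pdcd1lg2 among them, and 2 lower. Pdcd1lg2 alone was called. Plgrkt, which encodes a plasminogen receptor and runs in the other direction with 64 bases between it and Cd274, rose with a log2 fold change of 0.21 (SE 0.051, limma adjusted p = 0.012) from 21.6 to 25.0 FPKM. Jak2, the kinase that signals from the interferon-γ receptor, rose by 0.17, Insl6 by 0.85 and the lincRNA A930007I19Rik by 0.93 on the log2 scale. Centring on the T-cell markers turned Plgrkt (-0.37) and Jak2 (-0.41) lower, as it did Cd274. Insl6 was then at 0.27 (limma adjusted p = 0.048), and A930007I19Rik, at 0.35, no longer passed (adjusted p = 0.36). On the far side of Pdcd1lg2, Ric1 and Ermp1 had log2 fold changes of -0.27 and -0.77, and of -0.85 and -1.35 after centring, where Ermp1 also passed the 2-fold threshold (limma adjusted p = 2.1e-06). Rln1 was at 0 in all libraries.

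The ligands shared by TIGIT and CD226 were both called lower. Nectin2, encoding CD112 (ENSMUSG00000062300, chr7:19716644-19750483, minus strand, protein coding), had 47.7, 51.6 and 45.4 FPKM in control libraries 1 to 3 and 7.21, 7.85 and 7.44 FPKM in cisplatin libraries 1 to 3. The groups stood far apart compared with the spread within either, and the read support was deep, at 815 to 909 rebuilt reads in the cisplatin libraries. With a log2 fold change of -2.67 (SE 0.059, limma adjusted p = 2.2e-07), a 6.35-fold lower level, Nectin2 had the largest change of the 10 ligands and lay at the 2.57 percentile among all tested genes. Nectin2 shares 135 exon bases with Gm20512 on the other strand, which was at 0.179 FPKM in the control and 0.0333 FPKM in the cisplatin group, and whether reads were counted by strand is not stated.

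Pvr, encoding CD155 (ENSMUSG00000040511, chr7:19903578-19921160, minus strand, protein coding), had 11.2, 11.4 and 12.5 FPKM in control libraries 1 to 3 and 5.28, 5.23 and 5.05 FPKM in cisplatin libraries 1 to 3. The cisplatin libraries lay close together and below every control library, at a log2 fold change of -1.16 (SE 0.057, limma adjusted p = 6.1e-06). Pvr shares no exon bases with the genes that lie within its span, Gm16184 and Gm16251.

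Of the 16 tested ID8 tumour markers, 15 were lower in the cisplatin group, and Epcam did not pass (log2 fold change -0.08, limma adjusted p = 0.78). The 16 stood at 8.19% (Krt19, keratin 19) to 93.7% (Epcam) of their control level, with a median of 20.5%. Nectin2 at 15.6% and Pvr at 44.3% lay within this wide range. The part of these markers' cells in the change of either ligand was not tested.

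Cd276 encodes B7-H3, a B7 family member found on many tumour cells whose receptor on T cells is not settled (ENSMUSG00000035914, chr9:58524298-58555437, minus strand, protein coding). Its levels were 4.12, 3.95 and 3.47 FPKM in control libraries 1 to 3 and 1.29, 0.965 and 1.21 FPKM in cisplatin libraries 1 to 3. The groups did not overlap, on 390 to 453 rebuilt reads in the control and 117 to 153 in the cisplatin libraries. Cd276 was called lower, with a log2 fold change of -1.66 (SE 0.14, limma adjusted p = 7.5e-05). Cd276 shares 416 exon bases with Gm10657 on the other strand, which was at 0.351 FPKM in the control and 0.119 FPKM in the cisplatin group.

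The gene whose profile over the 6 libraries lay nearest to that of Cd276, among protein-coding genes averaging 5 FPKM or more, was Met, the hepatocyte growth factor receptor and one of the ID8 tumour markers, with a root mean square difference of 0.0719 on the log2 scale after centring. Prkci (0.0782) and Dapk2 (0.0799) came next, and 8 of the 7665 genes compared were within 0.1. For Cd274 the nearest were Mdm2 (0.0102), Psmb3 (0.0143) and Pak2 (0.0180), and 1642 of 7664 genes were within 0.1, so that a profile like that of Cd274 was common. Each likeness was measured over the same 6 libraries, 3 per group.

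Lgals9 encodes galectin-9, a secreted sugar-binding protein and a ligand of TIM-3 (ENSMUSG00000001123, chr11:78962974-78984946, minus strand, protein coding), and was the most abundant of the 10 ligands in each group. It had 102, 104 and 108 FPKM in control libraries 1 to 3 and 64.7, 59.6 and 57.6 FPKM in cisplatin libraries 1 to 3. Every cisplatin library was lower than every control library. The log2 fold change of -0.79 (SE 0.050, limma adjusted p = 1.9e-05), a 1.73-fold lower level, did not reach the 2-fold call. In absolute FPKM, Lgals9 and Nectin2 had the widest gaps between group means of the 10 ligands.

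Lgals9 was the ligand with motif matches in its RefSeq window, among the 7 of 10 ligands with a window (Cd274, Pdcd1lg2, Nectin2, Cd80, Cd276, Lgals9 and Icosl, and not Pvr, Cd86 or Tnfsf9). The 250 bases before its start, chr11:78984925-78985174 (GRCm38.p6), are shown 5′ to 3′ on the minus strand with the ISRE core match in capitals.
Lgals9: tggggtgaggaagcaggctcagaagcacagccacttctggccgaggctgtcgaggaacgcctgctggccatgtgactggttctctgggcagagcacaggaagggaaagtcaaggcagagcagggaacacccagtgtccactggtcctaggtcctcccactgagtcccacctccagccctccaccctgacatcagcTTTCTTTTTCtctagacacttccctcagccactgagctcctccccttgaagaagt
The match, read on the other strand, ran from base -55 to base -46 counted from the start, and another, TTTCTGTTTC, from base 16 to base 25, where 1 is the start itself. A match is a description of the letters, and 3.44% of all windows held at least 1. The Lgals9 window had 4 CpG dinucleotides. For Cd80, Nectin2 and Cd276 the RefSeq start lay 3372, 910 and 404 bases inside the gene coordinates given here. Their windows therefore hold no bases before those gene starts, and the absence of a match covers the RefSeq windows only.

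The CD28 and CTLA-4 ligands were both higher in the cisplatin group and neither was called. Cd80, encoding B7-1 (ENSMUSG00000075122, chr16:38455561-38496335, plus strand, protein coding), had 2.51, 3.07 and 3.03 FPKM in control libraries 1 to 3 and 5.17, 4.87 and 4.72 FPKM in cisplatin libraries 1 to 3. The groups were separate, and the log2 fold change was 0.76 (SE 0.097, limma adjusted p = 6.0e-04).

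Cd86, encoding B7-2 (ENSMUSG00000022901, chr16:36603869-36666081, minus strand, protein coding), had 5.75, 4.97 and 5.26 FPKM in control libraries 1 to 3 and 6.91, 6.40 and 7.45 FPKM in cisplatin libraries 1 to 3. Its groups were also separate but closer, and the log2 fold change was 0.37 (SE 0.082, limma adjusted p = 0.0078), which became -0.21 on centring on the T-cell markers. Antigen-presenting cells carry both proteins. Among the macrophage and monocyte markers, 10 of 13 were tested and 8 rose, Lyz2 (lysozyme) from 30.8 to 89.7 FPKM and C1qb (complement C1q) from 0.863 to 6.28 FPKM, while Cd68 was at 24.1 and 24.2 FPKM and Cd14 fell from 7.43 to 5.35 FPKM. Among the B-cell markers 9 of 10 rose, Ms4a1 (CD20) from 13.5 to 26.3 FPKM. Of the dendritic-cell markers, 4 were too low to be tested and hardly differed between control and cisplatin. These were Xcr1 (0.166 and 0.168 FPKM), Clec9a (0.254 and 0.296 FPKM), Siglech (0.0225 and 0.0241 FPKM) and Cd209a (0 in both). Among the 6 tested 5 rose, Batf3 from 4.28 to 8.36 FPKM, and Zbtb46 fell from 2.69 to 1.27 FPKM. The highest levels of that list were those of Ccl22 (13.6 to 27.3 FPKM) and Fscn1 (12.1 to 17.1 FPKM), both among the 5. These counts of markers that rose are on the deposited scale. After centring on the T-cell markers 4 B-cell markers were higher and 3 lower (list median 0.02), 2 dendritic-cell markers higher and 1 lower (median -0.07), and 6 macrophage and monocyte markers higher and 2 lower (median 0.86). The part of these cells in the levels of Cd80, Cd86 and Pdcd1lg2 was not tested.

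Of the ligands of ICOS and 4-1BB, receptors that sustain activated T cells, Icosl had the lowest mean of the 10 in the control group. Tnfsf9, the ligand of 4-1BB, ranked 6 there. In the cisplatin group Tnfsf9 ranked 8 and Icosl 9. Icosl (ENSMUSG00000000732, chr10:78069302-78083913, plus strand, protein coding) had 2.30, 1.68 and 1.84 FPKM in control libraries 1 to 3 and 1.61, 1.92 and 1.45 FPKM in cisplatin libraries 1 to 3. The groups overlapped, since cisplatin library 2 lay above control libraries 2 and 3. The log2 fold change of -0.21 (95% interval -0.61 to 0.18, limma adjusted p = 0.32) did not pass, and the interval leaves room for a moderate fall or a small rise.

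Tnfsf9, encoding 4-1BB ligand (ENSMUSG00000035678, chr17:57105325-57107757, plus strand, protein coding), had 4.70, 4.21 and 2.96 FPKM in control libraries 1 to 3 and 1.92, 1.85 and 2.15 FPKM in cisplatin libraries 1 to 3. The control libraries spread widely, library 3 being lowest, and still all lay above the cisplatin libraries. Tnfsf9 fell, with a log2 fold change of -0.95 (SE 0.18, limma adjusted p = 0.0037), short of the call. It passed the call at -1.14 without control replicate 3 and at -1.01 without cisplatin replicate 3. Tnfsf9 rested on the fewest reads of the 10 ligands, 79 to 182 per library, and shares 192 exon bases with the lincRNA Gm11110 on the other strand, which went from 6.17 to 3.24 FPKM.

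The result depended on what the libraries were scaled to. When the values were centred on the mean of the 20 T-cell markers, which assumes that these did not change and lowers every log2 fold change by 0.58, the median of all tested genes moved from 0.03 to -0.55 and calls over all tested genes became 3763 lower and 139 higher, in place of 2034 and 653. Under this scaling 5 ligands were called lower, with log2 fold changes of -3.25 for Nectin2, -2.24 for Cd276, -1.74 for Pvr, -1.53 for Tnfsf9 and -1.37 for Lgals9. None of the ligands was called higher. Cd274 turned from 0.30 to -0.28 (limma adjusted p = 3.4e-04) and Cd86 from 0.37 to -0.21 (adjusted p = 0.081), so neither had the same direction under both scalings. Pdcd1lg2 stayed higher at 0.48 (adjusted p = 0.0079), Cd80 was at 0.18 (adjusted p = 0.12), and Icosl became lower at -0.79 (adjusted p = 0.0049).

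**Figure D2:**
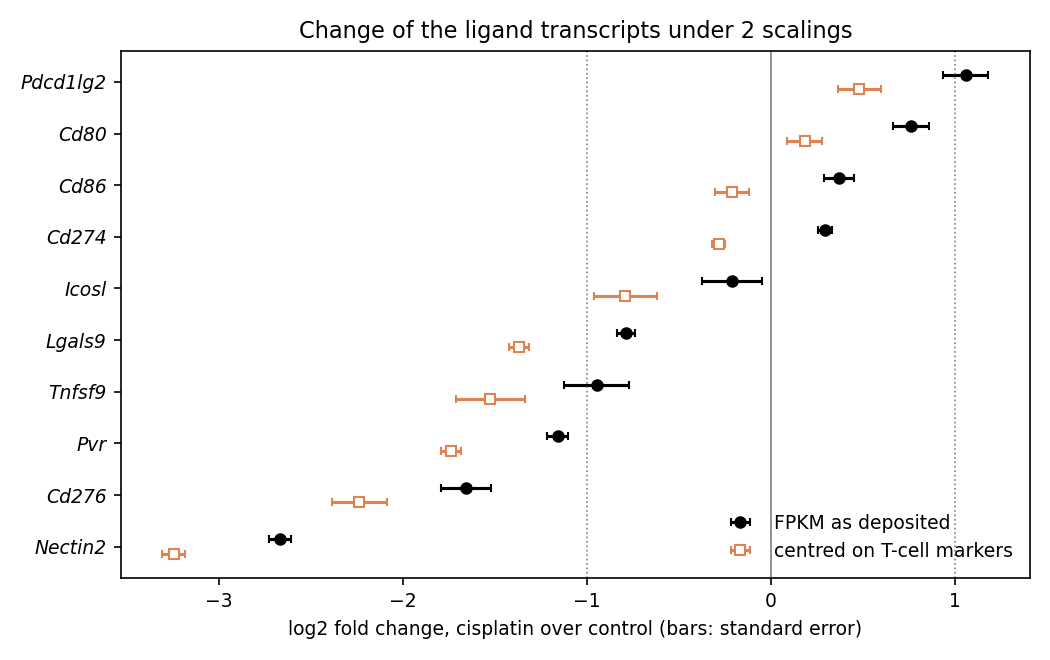
Log2 fold change (cisplatin over control) of each ligand with its standard error, from the FPKM as deposited (filled circles) and after centring on the T-cell markers (open squares). Dotted lines mark a 2-fold change; Cd274 and Cd86 lie on opposite sides of 0 under the 2 scalings, and Nectin2, Cd276, Pvr, Tnfsf9 and Lgals9 lie below 0 under both.

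Ratios of paired ligands within a library do not depend on the scaling between libraries. The ratio of Pvr to Nectin2 was 0.236, 0.222 and 0.275 in control libraries 1 to 3 and 0.733, 0.666 and 0.678 in cisplatin libraries 1 to 3, a difference of 1.51 on the log2 scale. Relative to Nectin2, Pvr stood higher in every cisplatin library than in any control library. The ratio of Pdcd1lg2 to Cd274 was 0.0652, 0.0947 and 0.0751 in the control and 0.138, 0.135 and 0.129 in the cisplatin libraries, a log2 difference of 0.79. The ratio of Cd86 to Cd80 was 2.29, 1.62 and 1.74 in the control and 1.34, 1.31 and 1.58 in the cisplatin libraries, a log2 difference of -0.41, with the groups only just separate. Without control replicate 1 this difference was -0.26. In a two-sided exact permutation test each of the 3 ratios gave p = 0.1 (adjusted over the 3 ratios, p = 0.1), which is the smallest p that 3 against 3 libraries allow.

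**Figure D3:**
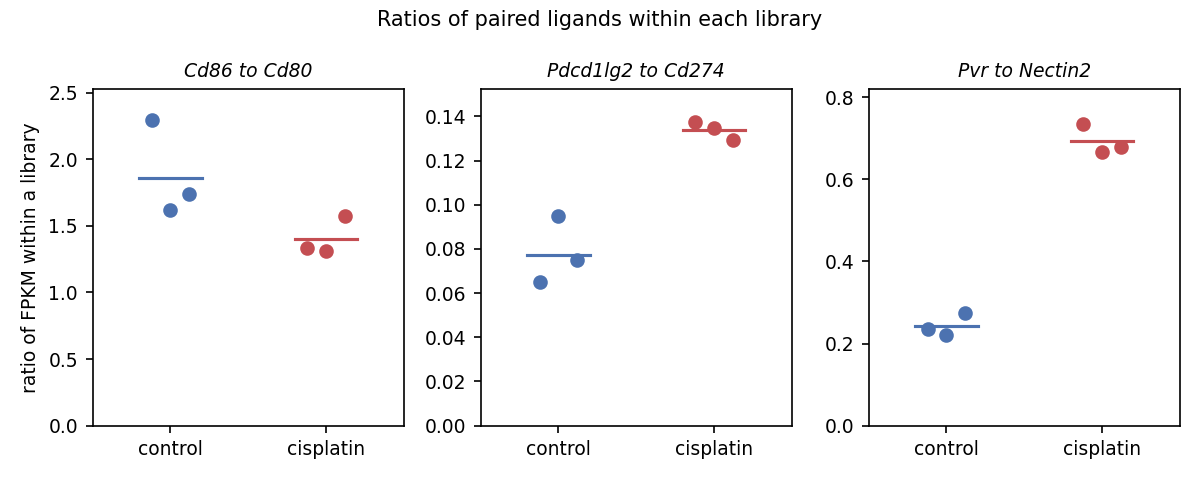
Ratio of the FPKM of paired ligands within each library on linear axes from 0, with 1 point per library (3 control, blue, and 3 cisplatin, red) and a line at the group's geometric mean. The Pvr to Nectin2 ratio lies between 0.222 and 0.275 in the control and between 0.666 and 0.733 in the cisplatin libraries.

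The makeup of the ligand transcripts shifted with these changes. The 10 ligands summed to 221.9 to 226.3 FPKM in the control libraries (mean 224.7 ± 2.40, SD, n = 3) and to 140.9 to 147.6 FPKM in the cisplatin libraries (144.4 ± 3.32). Lgals9 made up 46.6% ± 1.11 of the sum in the control and 42.0% ± 1.65 in the cisplatin group. Nectin2 went from 21.5% ± 1.36 to 5.20% ± 0.279 of the sum, and Cd274 from 17.4% ± 0.596 to 33.3% ± 1.26. Because the shares sum to the whole, that of Cd274 rose by more than its level, which changed 1.23-fold. Pdcd1lg2 went from 1.36% ± 0.219 to 4.45% ± 0.127, Cd80 from 1.28% ± 0.126 to 3.41% ± 0.0853 and Cd86 from 2.37% ± 0.2001 to 4.80% ± 0.445.

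**Figure D4:**
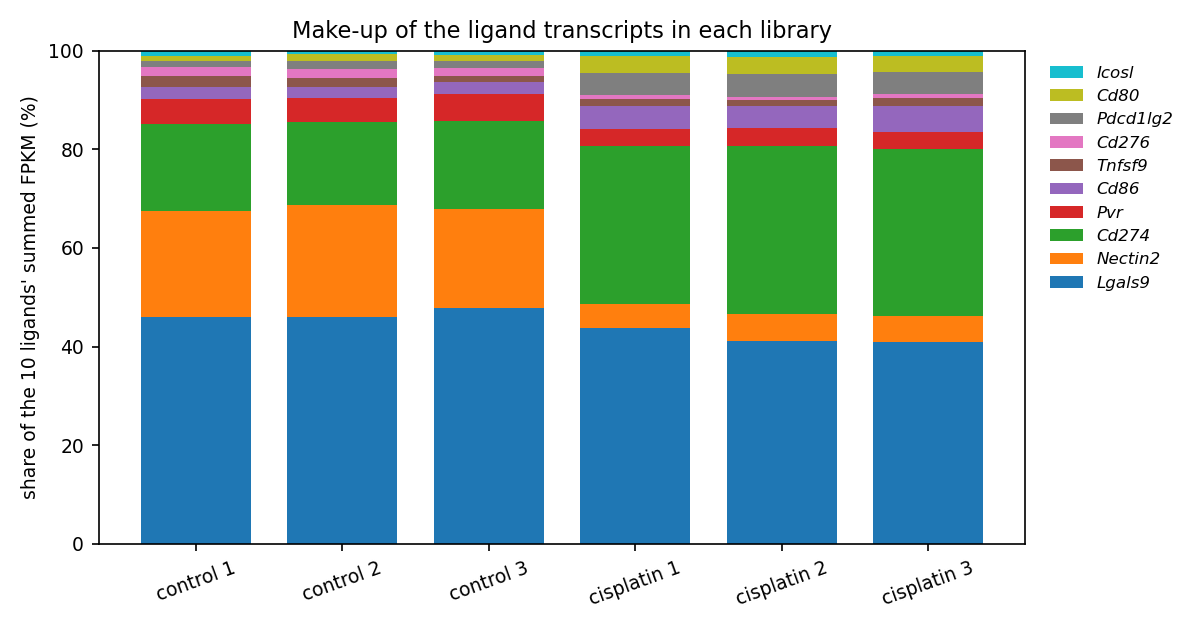
Share of each ligand in the summed FPKM of the 10 ligands, in percent, as 1 stacked bar per library. The Nectin2 segment shrinks from a mean of 21.5% in the control to 5.20% in the cisplatin libraries, and the Cd274 segment grows from 17.4% to 33.3%.

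The receptors of these ligands on T cells were measured in the same libraries. Of 10 listed receptors 9 were tested (Pvrig, at 0.355 and 0.577 FPKM, was not), 8 were higher and 1 lower at an adjusted p under 0.05, and none was called. Their median log2 fold change was 0.53, beside 0.60 for the T-cell markers, and -0.05 after centring on those markers. The receptors of Pvr and Nectin2 rose on the deposited scale, Cd96 from 27.7 ± 1.71 to 50.2 ± 0.509 FPKM (log2 fold change 0.86), Cd226 from 16.2 to 22.1 FPKM (0.44) and Tigit from 34.3 to 42.7 FPKM (0.32). Tigit no longer passed without control replicate 1 or 3 or cisplatin replicate 2 or 3 (limma adjusted p = 0.060 to 0.072). After centring, Cd96 was at 0.28, Cd226 at -0.14 and Tigit at -0.26. Pdcd1, which encodes PD-1, went from 3.37 ± 0.443 to 5.03 ± 0.452 FPKM (0.57), and Havcr2, which encodes TIM-3, from 1.03 to 1.96 FPKM (0.85), and after centring these were at -0.01 and 0.27. Without cisplatin replicate 3, Havcr2 was at 1.02 and called higher. Cd28 and Icos both had a log2 fold change of 0.53 and Ctla4 of 0.24, and after centring these were -0.05, -0.05 and -0.34. Tnfrsf9, which encodes 4-1BB, fell from 22.0 to 19.1 FPKM (-0.20, and -0.78 after centring), and its ligand Tnfsf9 also fell.

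Among 26 other ligands of T-cell receptors or of the same families, 17 were tested, 10 were higher, 4 lower and 3 did not pass, with a median log2 fold change of 0.41 (-0.17 after centring). Called higher were Tnfsf8, which encodes CD30 ligand, from 19.0 to 38.7 FPKM (1.02), and Cd40, a costimulatory receptor of antigen-presenting cells, from 1.10 to 2.47 FPKM (1.10). After centring these were at 0.44 and 0.52 and not called, and without control replicate 1 Tnfsf8 was at 0.98, and without cisplatin replicate 2 Cd40 at 0.97, each short of the call. Called lower was Lgals3, which encodes galectin-3, from 89.9 to 33.6 FPKM (-1.42). Centring took the other ligands called lower from 1 to 3 of the 17 tested, and all tested genes called lower from 2034 to 3763 of 15874. Nectin1, an adhesion molecule related to Nectin2, fell from 3.38 to 1.75 FPKM (-0.91, and -1.49 and called after centring), and Nectin3 and Nectin4 were too low to be tested. Cd70, the ligand of CD27, was below the filter at 0.0393 and 0.497 FPKM and was called higher when no filter was applied (limma adjusted p = 0.0069). That call rested on very few rebuilt reads, 0 to 2 in the control and 9 to 16 in the cisplatin libraries. Tnfsf4, encoding OX40 ligand, rose by 0.86 on the log2 scale (0.28 after centring), whereas Tnfsf9 of the same family fell. Ceacam1 (-0.67, and -1.25 and called after centring) and Cd47, the signal that restrains phagocytes (-0.29, and -0.87 after centring), were lower, and Tnfrsf14, the ligand of BTLA, was higher (0.94, and 0.36 after centring).

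Factors known to set the transcription or surface level of PD-L1 and other ligands changed in both directions. Of 22 listed, 21 were tested, 12 were higher, 7 lower and 2 did not pass, none was called, and the median log2 fold change was 0.16 (-0.42 after centring). After centring 3 of the 21 were called lower, Adam10 (-1.55), Cmtm4 (-1.53) and Ifngr2 (-1.04), beside 3763 of all 15874 tested genes. Ifng itself was below the filter, at 0.247 ± 0.0390 FPKM in the control and 0.747 ± 0.291 FPKM in the cisplatin group. It rested on few rebuilt reads, 8 to 11 in the control and 18 to 43 in the cisplatin libraries. Limma's voom on the rebuilt reads, whose filter it passed, called it higher (log2 fold change 1.57, adjusted p = 0.017). With no filter applied, limma on the FPKM did not call Ifng. Its receptor chains differed in direction, Ifngr1 rising from 80.9 to 144.4 FPKM (0.84, and 0.26 after centring) and Ifngr2 falling from 17.0 to 12.4 FPKM (-0.46). Of the transcription factors, Relb (0.65), Ciita (0.64), Irf1 (0.42) and Hif1a (0.41) rose and Stat2 (-0.30) fell, and after centring Stat2 was at -0.88, Relb was at 0.07, Ciita at 0.06, Irf1 at -0.16 and Hif1a at -0.17. Cmtm6 and Cmtm4, membrane proteins that protect PD-L1 from degradation, had log2 fold changes of 0.22 (-0.36 after centring) and -0.95. Cmtm4 was called lower, at -1.01, without cisplatin replicate 2. Adam10, a protease that sheds PD-L1 from the surface, fell from 73.3 to 37.3 FPKM (-0.97).

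**Figure D5:**
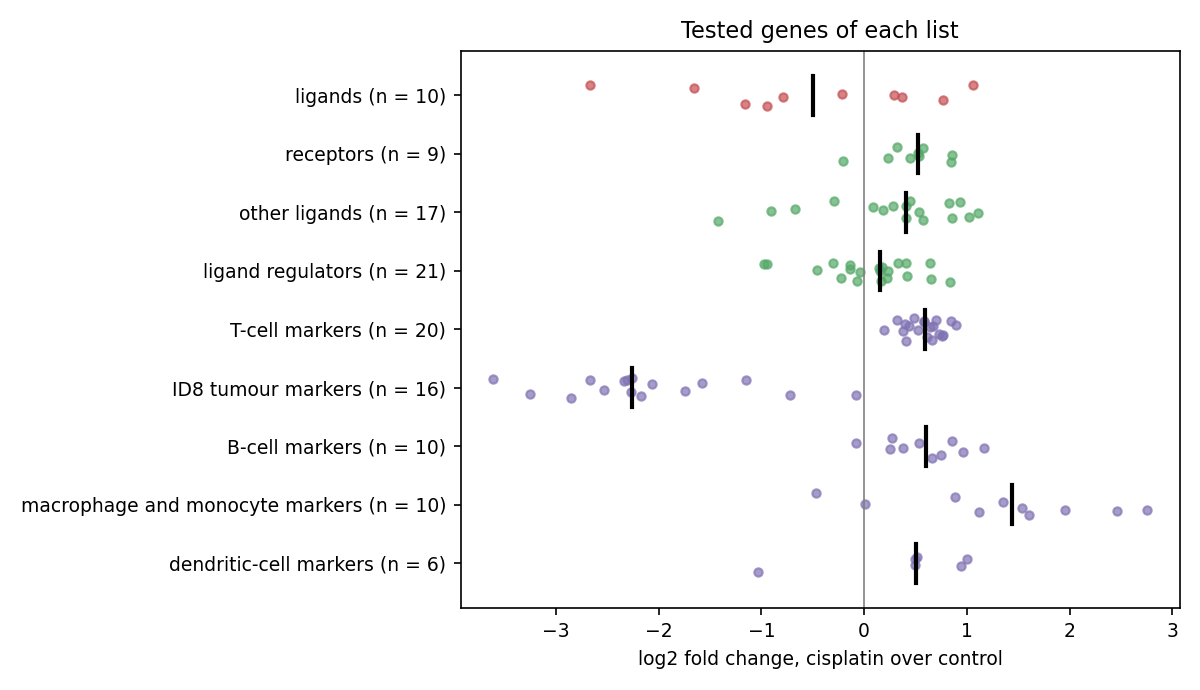
Log2 fold change (cisplatin over control, FPKM as deposited) of the tested genes in each list, with 1 point per gene, a black bar at the list median and n the number of tested genes; vertical scatter within a row has no meaning. The 10 ligands spread from -2.67 to 1.06, with the ID8 tumour markers (median -2.26) on one side and the T-cell (0.60) and macrophage markers (1.44) on the other.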

How the data were processed

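A table of FPKM values for 54532 genes was analysed, covering 6 libraries from T-cell and ID8 co-cultures, 3 per group, with groups and replicate numbers taken from the sample labels. The authors deposited FPKM, in which gene counts are scaled by length and library, and gave the gene length beside them. For the upstream steps the sources differ. The submitters' processing notes name fastp, HISAT2 2.0.5, featureCounts 1.5.0-p3 and mm10, whereas the paper's methods name LifeScope. Use of strand and treatment of reads matching several genes are not given in the sources used here. Gene coordinates matched GENCODE M21 (GRCm38) for 53585 of 54495 genes and for 9 of the 10 ligands (not Pdcd1lg2). The table held 0 columns of other samples.

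Whole reads were rebuilt from FPKM times gene length, with 100% of values above 0 within 0.1 of a whole read. The FPKM denominators were proportional to median-of-ratios factors, at 1.04 (cisplatin) and 0.98 (control) times the reads on genes. Depth was 30606569 to 32169496 reads on genes, and rebuilt reads cover counting error only. Replicates differed by more than sampling noise (chi-square per degree of freedom 5.35 to 6.44).

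Values were transformed to log2(FPKM + 0.1) and tested in limma 3.58.1 under R 4.3.3 (lmFit, then eBayes with a trend) for the 15874 genes averaging 0.5 FPKM or more, with Benjamini-Hochberg adjustment over all of them. A fold change on this scale understates the change of low genes. Calls needed an adjusted p under 0.05 and a log2 fold change of at least 1 in size. Within-library ratios were compared by exact permutation tests. On simulated data 187 of 192 changed genes were called, and 3 unchanged genes. The planted changes were all larger than the fold threshold of a call and about even in direction. The simulation therefore cannot tell how well calls near the threshold, or under an uneven shift, are made. The alternatives were pseudocounts of 1 and 0.01, no filter or a minimum mean of 5 FPKM, other scalings, no trend, voom on rebuilt reads (at least 10 in at least 3 libraries), treat at 1.5-fold, protein-coding genes, leaving out each replicate and a replicate block. Named genes were the 10 ligands, the genes of the lists, the genes within 200 kb of Cd274 and Pdcd1lg2, and the 3 nearest profiles to Cd274 and Cd276. The ligands and lists were chosen with earlier results of these data known. Promoter windows came from RefSeq (GRCm38.p6). Python 3.11.15, pandas 2.3.3, scipy 1.17.1 and matplotlib 3.10.9 were used. Individual values of a few listed genes are not reported here.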

Additional observations from a re-analysis of the deposited data

How the results depend on the processing

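Of 195 refits of the 10 ligands' fold changes under other settings, 187 kept the direction and the side of the adjusted p threshold. Those that turned direction were Cd274 (-0.28) and Cd86 (-0.21), both on centring on the T-cell markers. With that centring 5 ligands were called lower and 0 higher. The number called higher was also 0 with a pseudocount of 1 and with a minimum mean of 5 FPKM, which leaves Cd276, Cd80, Icosl, Pdcd1lg2 and Tnfsf9 untested. Leaving out a replicate in turn gave 0 to 1 ligands called higher (0 without control replicate 1) and 3 to 4 called lower. In limma's treat at 1.5-fold, Cd274, Cd80, Cd86 and Tnfsf9 no longer passed, and centring ended the pass of Cd80 and gave one to Icosl. Libraries that share a replicate number did not deviate together (correlations of 0.02, -0.06 and -0.02), so the numbers were not taken as pairs; with the replicate block 3 ligands were called lower and 1 higher, as without it. Median of ratios gave the same values as the deposited FPKM, whose denominators already follow it. Over all tested genes, 2034 were called lower and 653 higher; the minimum mean of 5 FPKM gave 903 and 242, centring 3763 and 139, and the number called higher was 311 with a pseudocount of 1, 1127 in voom, 377 in treat and 255 over protein-coding genes. Depth limits Tnfsf9 most, at 79 to 182 reads.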
